A study of Homo sapiens with 6 samples.

Results

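The 7 genes described here encode the cGAS-STING pathway, which senses DNA outside the nucleus, and a few of its outputs. They were chosen by name from a table of 26485 genes: MB21D1 (now CGAS), TMEM173 (now STING1), TBK1, IRF3, TREX1, CCL5 and CXCL10. All 7 were listed in the table, and 6 of them passed the filter on low counts that 13562 genes passed. CXCL10 did not pass and is given by its counts alone. Poly(A) RNA of HCC38, an established human cell line from a ductal adenocarcinoma of the breast labelled triple negative and basal-like, had been sequenced in 6 libraries. CIP2A had been silenced with 3 siRNAs, 1 library each, named siCIP2A#1, siCIP2A#2 and siCIP2A#3. The control group held 1 library for each of the non-targeting siRNAs SCR#2 and SCR#3 and 1 mock library, which the sample label describes as reagent alone and the protocol as not transfected. Transfection was with Oligofectamine, and the time from transfection to harvest was not given in the sources used here. The labels do not say whether the libraries came from separate cultures, so every p-value here measures the spread between these libraries, which may be technical.

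The protein cGAS binds double-stranded DNA in the cytosol, for example where the envelope of a micronucleus has ruptured, and makes the cyclic dinucleotide cGAMP. STING, an adaptor in the endoplasmic reticulum, binds cGAMP and recruits the kinase TBK1, which phosphorylates the transcription factor IRF3. IRF3 and NF-kB then switch on interferon beta and chemokine genes such as CXCL10 and CCL5, and the exonuclease TREX1 degrades the DNA that would start the signal. CIP2A is known as an inhibitor of the phosphatase PP2A and as a partner of TOPBP1 that holds broken chromosomes together in mitosis, and its loss can leave fragments that end in micronuclei. The libraries report RNA levels only, and neither micronuclei nor the phosphorylation of these proteins was measured in them.

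Total counts lay between 15547526 and 18161451 in the siCIP2A libraries and between 13995187 and 17116379 in the control libraries, and levels are given as CPM, the count scaled to the library total. CIP2A, listed as KIAA1524, measured 16.6, 45.6 and 19.3 CPM in the siCIP2A#1, #2 and #3 libraries, against 99.7, 103 and 97.0 CPM in the SCR#2, SCR#3 and mock libraries, so every CIP2A siRNA library held less of its target than every control. It fell with each siRNA set against the controls, with log2 differences of -2.62, -1.14 and -2.38 for siCIP2A#1, #2 and #3 (edgeR adjusted p = 0.000241, 0.0165 and 0.000468). With the 3 siRNAs as 1 group the log2 difference was -1.90 (SE 0.30), and even this gene did not pass (edgeR adjusted p = 0.708), so a miss in the group comparison says little about any other gene. Of the cell type markers, ESR1 and PGR, which encode the hormone receptors, reached at most 0.351 and 0.117 CPM. Of the 8 basal epithelial markers EGFR stood at 74.2 to 83.4 CPM and LAMB3 at 131 to 204 CPM. Of the 6 epithelial markers the keratin genes KRT8 and KRT18 reached 446 and 721 CPM and KRT7 reached 7.16 CPM, while EPCAM, CDH1 and KRT19 did not exceed 0.746, 1.22 and 0.708 CPM. The basal keratin genes KRT14, KRT6A and KRT6B had 0 counts in every library. KRT5, KRT17 and TP63 reached at most 0.0678, 0.0643 and 0.526 CPM. The keratins of the basal list were thus absent or nearly so, and EGFR and LAMB3 of the same list were not. ERBB2 transcripts were present at 48.3 to 74.1 CPM. Among 12 leukocyte markers PTPRC, CD3D, MS4A1, TYROBP and NKG7 had 0 counts in every library, and 5 others did not exceed 0.322 CPM. CD68, a lysosomal protein gene that marks macrophages, stood at 152 to 202 CPM and ITGAM at 1.87 to 3.73 CPM.

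Divided by transcript length, which allows genes to be compared with each other, the signalling genes of the pathway stood far above its outputs. In RPKM (CPM per kilobase of the principal GENCODE 29 transcript), TMEM173 averaged 37.2 ± 11.4 in siCIP2A libraries and 36.7 ± 1.90 in controls (SD, n = 3 each). IRF3 averaged 23.2 ± 2.00 RPKM in siCIP2A libraries and 24.6 ± 0.941 RPKM in controls. TBK1 averaged 19.8 ± 2.04 RPKM in siCIP2A libraries and 19.8 ± 2.17 RPKM in controls, and MB21D1 averaged 9.02 ± 2.23 RPKM in siCIP2A libraries and 9.65 ± 0.216 RPKM in controls. TREX1 followed with 1.37 RPKM in siCIP2A libraries and 1.39 RPKM in controls, then CCL5 with 0.392 RPKM in siCIP2A libraries and 0.495 RPKM in controls, and CXCL10 with 0.0491 RPKM in siCIP2A libraries and 0.0395 RPKM in controls. The order of the 7 group means was the same in both groups. Over the siCIP2A libraries the ranges of IRF3 and TBK1 overlapped (20.9 to 24.7 RPKM and 17.5 to 21.4 RPKM). Those of CCL5 and CXCL10 overlapped there too (0.0807 to 0.707 RPKM and 0 to 0.100 RPKM). Within each siCIP2A library, however, IRF3 stood above TBK1 and CCL5 above CXCL10. With siCIP2A#1 CCL5 and CXCL10 had only 2 and 1 counts, so their order in that library is uncertain. In the controls neither pair overlapped.

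As a group, the 3 CIP2A siRNAs were not set apart from the controls by any of the 7 genes. Of the 6 tested genes 0 passed edgeR's quasi-likelihood test at an adjusted p under 0.05, in a comparison that called 0 of 13562 genes (0%), with 369 genes at an unadjusted p under 0.05. The 2 groups of CPM values overlapped for all 7 genes, against 7.53% of tested genes whose groups were separate. The edgeR log2 difference (siCIP2A minus control) was -0.12 for MB21D1 (SE 0.16), 0.0015 for TMEM173 (SE 0.18), -0.02 for TBK1 (SE 0.11), -0.10 for IRF3 (SE 0.11), -0.04 for TREX1 (SE 0.27) and -0.39 for CCL5 (SE 0.56), each with an edgeR adjusted p of 0.999. An exact two-sided permutation test of the mean CPM over the 6 libraries gave its smallest p for IRF3 (p = 0.50, 1 when adjusted over the 7 genes with the Benjamini-Hochberg method), in a design where 3 against 3 cannot go below 0.10. DESeq2, run beside edgeR, called 3 of all genes and none of these. For MB21D1, TMEM173, IRF3, TREX1 and CCL5 the SD of CPM was larger in siCIP2A libraries than in controls, and for TBK1 it was not. This spread was not particular to them. Between pairs of siCIP2A libraries, chi-square per degree of freedom over all tested genes was 15.6 to 18.0. Between pairs of controls it was 3.20 to 11.3. Genes with high counts weigh most in it, and how many tested genes had a larger SD in siCIP2A libraries was not counted. In bulk RNA, fewer cells that express a gene and less RNA per cell cannot be told apart.

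**Figure D1:**
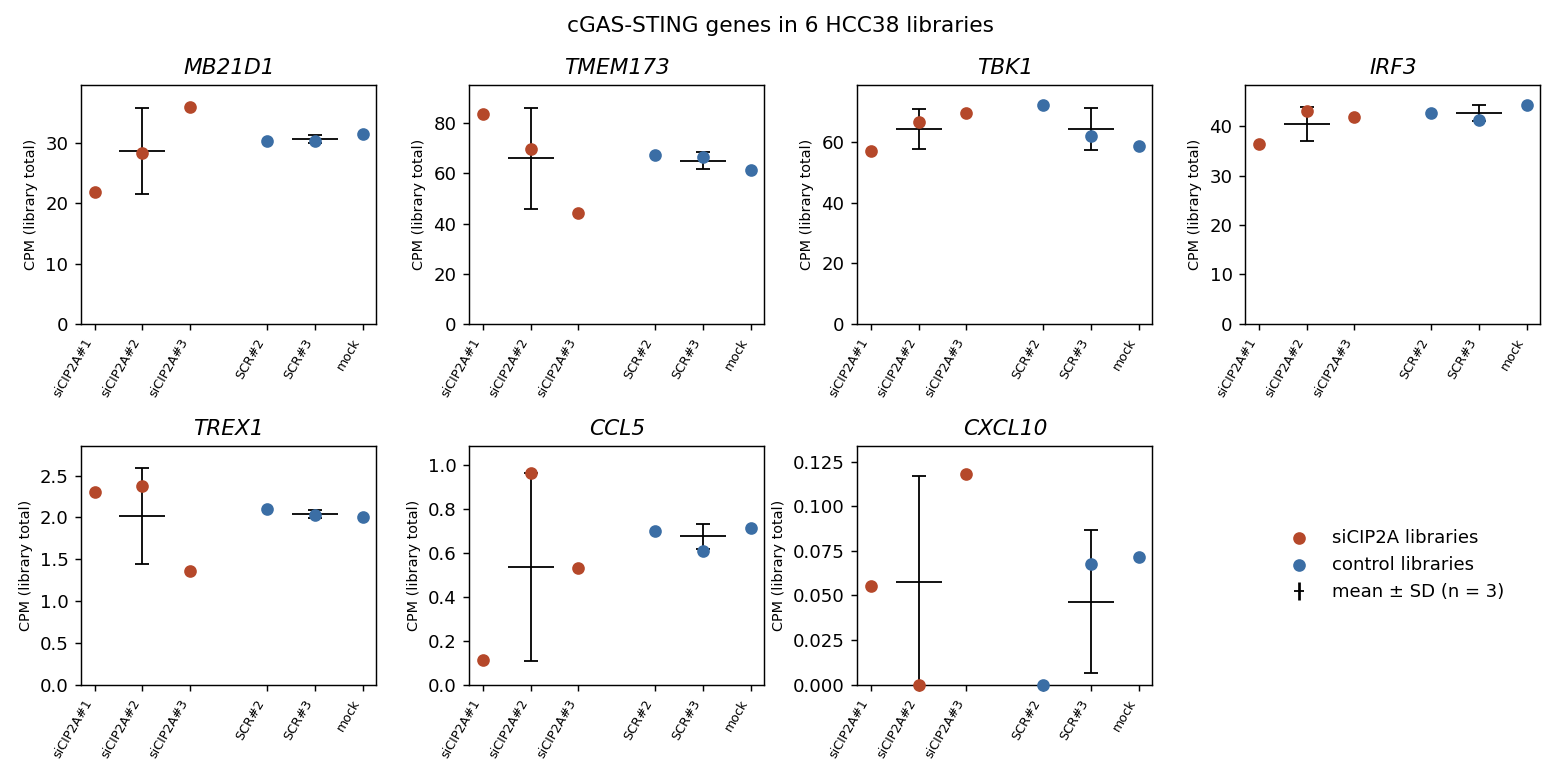
CPM of the 7 genes in each library (y axis, each panel with its own scale from 0; the lower error bar of CXCL10 is cut at 0), siCIP2A libraries in red and controls in blue, with the mean ± SD of 3. The SD of TMEM173 was 20.2 CPM in siCIP2A libraries and 3.36 CPM in controls, and that of MB21D1 was 7.09 CPM in siCIP2A libraries and 0.688 CPM in controls.

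MB21D1, the gene of the DNA sensor cGAS, lies on chromosome 6 from 73413515 to 73452276 on the minus strand (GENCODE 29, GRCh38). It measured 21.8, 28.3 and 36 CPM in the siCIP2A#1, #2 and #3 libraries, against 30.3, 30.4 and 31.5 CPM in the SCR#2, SCR#3 and mock libraries. The library of siCIP2A#1 was the lowest of the 6 and that of siCIP2A#3 the highest, with the 3 controls close together between them. In a fit with each siRNA as its own level, siCIP2A#1 differed from the controls by -0.53 on the log2 scale (SE 0.13, edgeR adjusted p = 0.212), a size that 92.9% of tested genes did not reach in that library. The difference was -0.12 with siCIP2A#2 (SE 0.13, edgeR adjusted p = 0.735) and 0.21 with siCIP2A#3 (SE 0.13, edgeR adjusted p = 0.708). None passed. Each siRNA has 1 library, assumed to vary like the controls, and the 3 comparisons share those controls. DDX43 overlaps MB21D1 on the other strand, and the strand setting of the counting was not given in the sources used here.

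TMEM173, the gene of the adaptor STING, ran the other way across the siRNAs. It lies on chromosome 5 from 139475534 to 139482935 on the minus strand. It measured 83.9, 69.9 and 44.1 CPM in the siCIP2A#1, #2 and #3 libraries, against 67.5, 66.4 and 61.2 CPM in the SCR#2, SCR#3 and mock libraries. The siCIP2A#1 library lay above all controls and the siCIP2A#3 library below all of them. The log2 difference from the controls was 0.33 with siCIP2A#1 (SE 0.11, edgeR adjusted p = 0.346), 0.10 with siCIP2A#2 (SE 0.11, edgeR adjusted p = 0.749) and -0.58 with siCIP2A#3 (SE 0.12, edgeR adjusted p = 0.332). None passed, although the last was larger in size than that of 94.1% of tested genes.

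The mock decided the calls for these 2 genes, as it did for many other genes with siCIP2A#1 and with siCIP2A#3. Without it, the spread in that fit comes from SCR#2 and SCR#3 alone, and the number of genes called with siCIP2A#1 was 1896 in place of 16. In that setting MB21D1 (-0.50, edgeR adjusted p = 0.00145) and TMEM173 (0.30, edgeR adjusted p = 0.00741) passed with siCIP2A#1 and TMEM173 passed with siCIP2A#3 (-0.61, edgeR adjusted p = 6.95e-06). Over all alternatives the adjusted p lay between 0.00145 and 0.469 for MB21D1 with siCIP2A#1, between 0.00741 and 0.865 for TMEM173 with siCIP2A#1 and between 6.95e-06 and 0.405 for TMEM173 with siCIP2A#3.

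The siRNAs were also set against each other, a comparison added after these values had been seen. TMEM173 was higher with siCIP2A#1 than with siCIP2A#3 by 0.91 on the log2 scale (SE 0.14, edgeR adjusted p = 0.0414), in a comparison of 1 library with 1 that called 69 of 13562 genes (0.509%). It was called in 9 of 9 alternatives (edgeR, DESeq2 or limma adjusted p between 3.30e-09 and 0.0436), but all of them use the same 2 libraries, so whether the difference recurs in another library was not tested. With the filter on low counts and all libraries in the edgeR fit, it was the only one of the 6 tested genes called between any pair of siRNAs. MB21D1 differed by -0.74 between the same libraries, siCIP2A#1 minus siCIP2A#3 (SE 0.16, edgeR adjusted p = 0.0963, between 2.36e-05 and 0.132 over the alternatives). TMEM173 differed by 0.68 between siCIP2A#2 and siCIP2A#3 (SE 0.14, edgeR adjusted p = 0.135, between 3.09e-06 and 0.152). Between siCIP2A#1 and siCIP2A#2 the test called 2 genes (0.0147%), CIP2A among them, and between siCIP2A#2 and siCIP2A#3 0 genes (0%), with 2116 at an unadjusted p under 0.05 and 96 called by DESeq2.

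CIP2A itself was lowest with siCIP2A#1 and highest with siCIP2A#2, another order than that of TMEM173, and between siCIP2A#1 and siCIP2A#3 its log2 difference was -0.24 (SE 0.15, edgeR adjusted p = 0.542). Sums of the epithelial, basal epithelial, fibroblast and endothelial markers had the same order over the siRNA libraries as TMEM173. Those of the hormone receptor and leukocyte markers did not. With 3 single libraries a shared order arises readily, and how many of all tested genes had it was not counted. The summed level of the 6 epithelial markers was 1180, 939 and 656 CPM in the siCIP2A#1, #2 and #3 libraries, against 725, 828 and 939 CPM in the SCR#2, SCR#3 and mock libraries. Nearly all of it was KRT8 and KRT18, and EPCAM, KRT7 and KRT19 were not in that order. The basal epithelial sum was 279, 224 and 221 CPM with siCIP2A#1, #2 and #3. It was 231, 206 and 236 CPM with SCR#2, SCR#3 and in the mock. Nearly all of it was LAMB3, at 204, 150 and 137 CPM with siCIP2A#1, #2 and #3, and EGFR. EGFR was not in that order, at 74.2, 74.4 and 83.4 CPM. The endothelial sum was 14.5, 9.26 and 7.38 CPM with siCIP2A#1, #2 and #3. It was 11.4, 10.4 and 7.65 CPM with SCR#2, SCR#3 and in the mock. CDH5 was at 0 in every library, and VWF was not in that order. The sum of the 8 fibroblast markers was 19.2, 9.39 and 6.56 CPM with siCIP2A#1, #2 and #3. It was 8.47 CPM with SCR#2, 6.71 CPM with SCR#3 and 7.65 CPM in the mock. Most of the fibroblast sum with siCIP2A#1 was COL1A1, a collagen chain gene, at 14.6 CPM, which was called against the controls (log2 difference 1.52, SE 0.17, edgeR adjusted p = 0.027), while THY1 was at 0 in every library and LUM had counts with siCIP2A#1 alone. DCN, COL3A1 and PDGFRA of the fibroblast list were not in the order of TMEM173. The part of these markers in the TMEM173 difference was not tested.

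**Figure D2:**
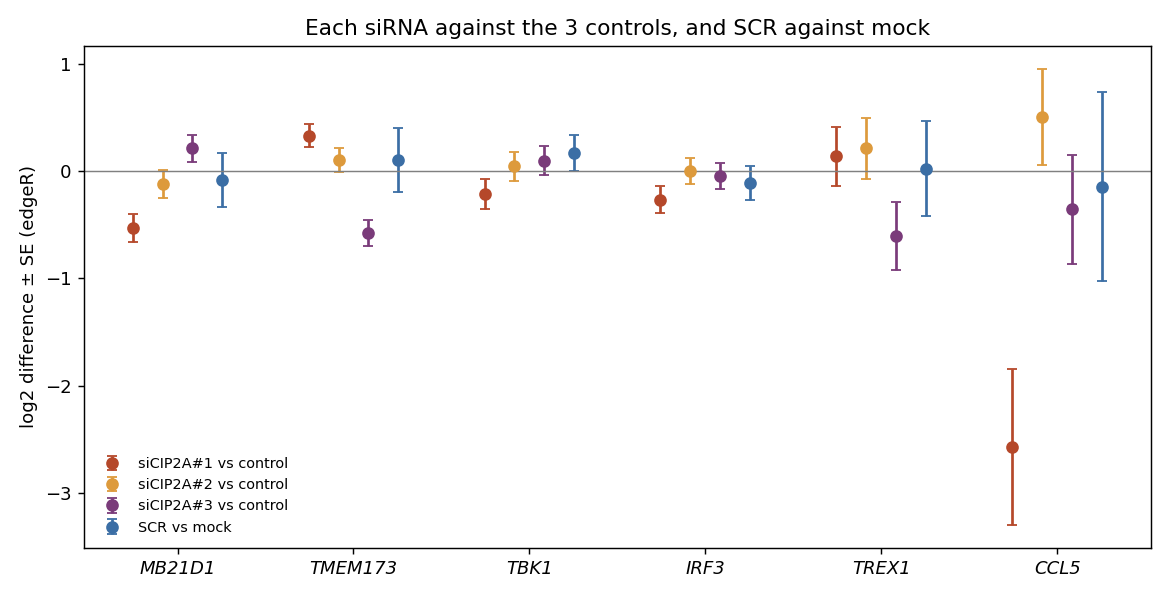
Log2 difference ± SE (y axis, edgeR) of each of the 6 tested genes for each siRNA against the 3 controls and for SCR#2 and SCR#3 against the mock. MB21D1 and TMEM173 lie on opposite sides of 0 with siCIP2A#1 (-0.53 and 0.33) and with siCIP2A#3 (0.21 and -0.58), and the widest bars belong to CCL5.

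TBK1, the kinase that STING recruits, and IRF3, the transcription factor it phosphorylates, varied less. TBK1 (chromosome 12 from 64451880 to 64502108, plus strand) measured 57.0, 66.8 and 69.7 CPM in the siCIP2A#1, #2 and #3 libraries, against 72.4, 62.2 and 58.9 CPM in the SCR#2, SCR#3 and mock libraries. Its controls were as far apart as its siRNA libraries, with an SD of 6.63 CPM in siCIP2A libraries and 7.07 CPM in controls. IRF3 (chromosome 19 from 49659569 to 49665875, minus strand) measured 36.5, 43.0 and 41.9 CPM in the siCIP2A#1, #2 and #3 libraries, against 42.7, 41.2 and 44.4 CPM in the SCR#2, SCR#3 and mock libraries. Both genes had their lowest value in the siCIP2A#1 library, where the log2 difference was -0.21 for TBK1 (SE 0.14, edgeR adjusted p = 0.677) and -0.27 for IRF3 (SE 0.12, edgeR adjusted p = 0.537). With siCIP2A#2 and siCIP2A#3 the differences of both genes lay between -0.04 and 0.10 on the log2 scale. Without the mock TBK1 with siCIP2A#1 stood at -0.27 and was called. This is the setting described above, where far more genes of the whole table were called. Between siCIP2A#1 and siCIP2A#3 TBK1 differed by -0.31 and was called in 1 of 9 alternatives. IRF3 shares its locus with BCL2L12 on the other strand.

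TREX1, the exonuclease that clears cytosolic DNA, was a low transcript. It measured 2.31, 2.38 and 1.36 CPM in the siCIP2A#1, #2 and #3 libraries (42, 37 and 23 counts), against 2.10, 2.03 and 2.00 CPM in the SCR#2, SCR#3 and mock libraries (36, 30 and 28 counts). The siCIP2A#3 library was the lowest of the 6 and the other siRNA libraries the highest. With siCIP2A#3 the log2 difference was -0.60 (SE 0.32, edgeR adjusted p = 0.666), and the exact 95% Poisson interval of that library, 0.861 to 2.04 CPM, overlaps those of the controls. TREX1 (chromosome 3 from 48465811 to 48467645, plus strand) overlaps ATRIP on the same strand, so reads in the shared part could have been given to either gene or to none, and its level is uncertain.

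CCL5, the chemokine gene also known as RANTES, had few reads everywhere and the fewest with siCIP2A#1. It had 2, 15 and 9 counts with siCIP2A#1, #2 and #3, against 12 with SCR#2, 9 with SCR#3 and 10 in the mock. In CPM these are 0.110, 0.965 and 0.532 in siCIP2A libraries, against 0.701, 0.610 and 0.715 in the same order of controls, so the siCIP2A libraries held both the lowest and the highest value. The ratio of the siCIP2A#1 library to the pooled controls was 0.163, with an exact 95% interval of 0.0189 to 0.64 that covers counting error only. The fitted log2 difference of siCIP2A#1 was -2.57 (SE 0.73), which depends on the prior count, and did not pass (edgeR adjusted p = 0.253, between 0.0578 and 0.325 over the alternatives). With siCIP2A#2 it was 0.51 (SE 0.45, edgeR adjusted p = 0.677) and with siCIP2A#3 -0.35 (SE 0.51, edgeR adjusted p = 0.9). CCL5 lies on chromosome 17 from 35871491 to 35880793 on the minus strand.

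CXCL10, the interferon-inducible chemokine that is a common readout of STING signalling, was at the limit of detection. It had 1, 0 and 2 counts with siCIP2A#1, #2 and #3, against 0 with SCR#2, 1 with SCR#3 and 1 in the mock. Over the 3 siCIP2A libraries that is 3 of 50638805 counts, or 0.0592 CPM with an exact 95% Poisson interval of 0.0122 to 0.173, and over the 3 controls 2 of 45855347, or 0.0436 CPM with an interval of 0.00528 to 0.158. These intervals cover counting error only. No library exceeded the floor of 3 counts, so a difference was not detectable at this depth and no fold is given. CXCL10 lies on chromosome 4 from 76021117 to 76023497 on the minus strand, and ART3 overlaps it on the other strand.

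The sequence upstream of CXCL10 holds the elements through which IRF3 and NF-kB are known to act on it, and is shown because its transcript is the output that stayed near 0. The stretch lies at chr4:76023600-76023728 on the minus strand (RefSeq, GRCh38.p14), from 231 to 103 bases before the start of the gene, 5′ to 3′. Capitals mark, in this order, 1 match to the core of the interferon-stimulated response element (ISRE; letters GAAANNGAAA, either strand) and 2 matches to the kB consensus.
CXCL10 promoter: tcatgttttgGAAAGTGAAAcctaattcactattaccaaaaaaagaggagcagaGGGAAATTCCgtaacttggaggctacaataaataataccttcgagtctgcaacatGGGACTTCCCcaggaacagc
Windows of 300 bases around the start (250 before and 50 after) were at hand for 3 of the 7 genes, CXCL10, TBK1 and TREX1, and CXCL10 alone held either motif. Of 35114 such windows over all genes 3.57% held the ISRE core and 5.91% the kB consensus. A match to letters does not show a bound site.

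Most interferon genes had as few reads as CXCL10. IFNA1, IFNA2, IFNK, IFNW1, IFNL1 and IFNL2 had 0 counts in every library, and IFNL3 had 1 count in all. IFNB1, the interferon beta gene and a direct target of IRF3, had 2 counts with siCIP2A#2 and 0 in the other libraries. Over the pooled controls the exact Poisson interval of IFNB1, of the kind given for CXCL10, reached up to 0.0804 CPM. It covers counting error only. IFNE, an epithelial type I interferon gene that is not known as an IRF3 target, was the only member of the list to be tested. It measured 1.21, 3.47 and 2.42 CPM in the siCIP2A#1, #2 and #3 libraries, against 1.75, 1.42 and 0.929 CPM in the SCR#2, SCR#3 and mock libraries. Its log2 difference as a group was 0.74 (SE 0.39, edgeR adjusted p = 0.999), and it stood at 0.36 without siCIP2A#2 and at 1.07 without siCIP2A#1. The groups overlap, since siCIP2A#1 lies below the SCR libraries.

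Other chemokines and cytokines of the pathway were also mostly silent. Of 16 listed genes 3 were tested. CXCL9, CCL3 and CCL4 had 0 counts in every library, and TNF and IL6 had 1 count each in all. CXCL2, a neutrophil chemokine gene, stood between 61.2 and 63.4 CPM in siCIP2A libraries and between 57.8 and 69.5 CPM in controls (log2 difference -0.02, SE 0.10). CXCL1 differed by 0.33 (SE 0.44) and CXCL16 by 0.05 (SE 0.19), and none of the 3 passed.

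The genes around the pathway were compared with the controls through lists, each described by its counts and its median log2 difference (siCIP2A minus control) beside the median of -0.0011 over all tested genes, of which 49.7% were above 0. In every list 0 genes passed edgeR's test. With single libraries left out in turn, the median changed sign in 8 of 11 lists, so the medians and counts of those lists describe these 6 libraries and carry no direction. It kept its sign for the TBK1 partners (0.03 to 0.19), the other DNA sensors (-0.08 to -0.03) and the interferon list with its single tested gene. Regulators of cGAS and STING had 21 tested of 22, with 12 above 0 and a median of 0.03. LRRC8A, part of an anion channel that carries cGAMP, differed by 0.24 (SE 0.11), TOLLIP by 0.20 (SE 0.12), the ubiquitin ligase gene RNF5 by -0.14 (SE 0.11) and ZCCHC3 by 0.12 (SE 0.10). BANF1, which competes with cGAS for DNA, stood at 103 to 104 CPM in siCIP2A libraries and 103 to 112 CPM in controls. Partners of TBK1 had 6 of 7 above 0 (median 0.09), with the adaptor gene TBKBP1 at 0.23 (SE 0.12), TRAF3 at 0.09 (SE 0.10), TICAM1 at 0.12 (SE 0.15) and the related kinase gene IKBKE at 0.09 (SE 0.18). Genes that clear DNA or RNA-DNA hybrids had 2 of 5 above 0 (median -0.04). Of these the catalytic RNase H2 subunit gene RNASEH2A differed by -0.18 (SE 0.12), SAMHD1 by 0.05 (SE 0.09), RNASEH2B by -0.04 (SE 0.13) and the lysosomal nuclease gene DNASE2 by -0.04 (SE 0.12).

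Other DNA sensors had 14 tested of 16, with 4 above 0 and a median of -0.03. The nuclease gene MRE11 differed by -0.17 (SE 0.11), HNRNPA2B1 by -0.11 (SE 0.07), the Ku subunit gene XRCC5 by -0.12 (SE 0.08) and LRRFIP1 by -0.10 (SE 0.09). ZBP1 had 0 counts in every library. Other interferon regulatory factors had 5 tested of 8 (median -0.0028, and 0.0019 with RLE scaling), with IRF2 at -0.11 (SE 0.11), IRF7 at 0.20 (SE 0.21), IRF9 at 0.12 (SE 0.17) and IRF5 at -0.22 (SE 0.36). Interferon receptor and JAK-STAT genes had 7 of 10 above 0 (median 0.07), with the kinase gene TYK2 at 0.15 (SE 0.10), IFNAR1 at 0.14 (SE 0.10), IFNGR1 at 0.13 (SE 0.10) and IFNAR2 at -0.14 (SE 0.11). The NF-kB arm had 8 of 14 above 0 (median 0.0055), with MAP3K14 at 0.16 (SE 0.14), NFKB1 at -0.14 (SE 0.14), IKBKB at -0.10 (SE 0.11) and BIRC3 at -0.16 (SE 0.19). Without SCR#2 the NF-kB count was 4 of 14 (median -0.085).

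Genes of the nuclear envelope and its repair had 12 of 17 above 0 (median 0.03). The ESCRT-III genes CHMP2A and CHMP4B differed by 0.15 (SE 0.10) and 0.10 (SE 0.10), SUN2 by 0.16 (SE 0.14) and TMPO by -0.09 (SE 0.09). SUN1, which links the envelope to the cytoskeleton, was the only list gene outside the markers to be called in any of the comparisons. It measured 392, 309 and 238 CPM in the siCIP2A#1, #2 and #3 libraries. The SCR#2, SCR#3 and mock libraries held 318, 333 and 322 CPM. SUN1 was named for its call between siCIP2A#1 and siCIP2A#3, so a difference between those libraries was given beforehand. It was higher with siCIP2A#1 than with siCIP2A#3 by 0.70 on the log2 scale (SE 0.11, edgeR adjusted p = 0.0414), and its order over the siRNA libraries was that of TMEM173.

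Of the interferon-stimulated genes 24 of 28 passed the filter on low counts. As a group the siCIP2A libraries had 18 of 24 above the controls (median 0.05, 0 called), with IFI27 at 0.67 (SE 0.34), ISG15 at 0.26 (SE 0.15), IFIT2 at 0.33 (SE 0.22) and MX1 at -0.38 (SE 0.29). That count rested on the mock. Against SCR#2 and SCR#3 alone, with the mock as a separate level, 9 of 24 were above 0 (median -0.04, 0 called). It also differed by siRNA: 13 of 24 were above the controls with siCIP2A#1 (median 0.05), 19 with siCIP2A#2 (median 0.25) and 9 with siCIP2A#3 (median -0.12), and 0 were called in each. The comparisons of single siRNAs, which share their controls, called 0.118% of all tested genes with siCIP2A#1, 0.0737% with siCIP2A#2 and 0.00737% with siCIP2A#3, and none of the 7 genes. Without siCIP2A#2 the group count was 12 of 24 (median -0.02) and without siCIP2A#3 it was 22 of 25 (median 0.15). Without SCR#3 it was 21 of 25 (median 0.15).

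**Figure D3:**
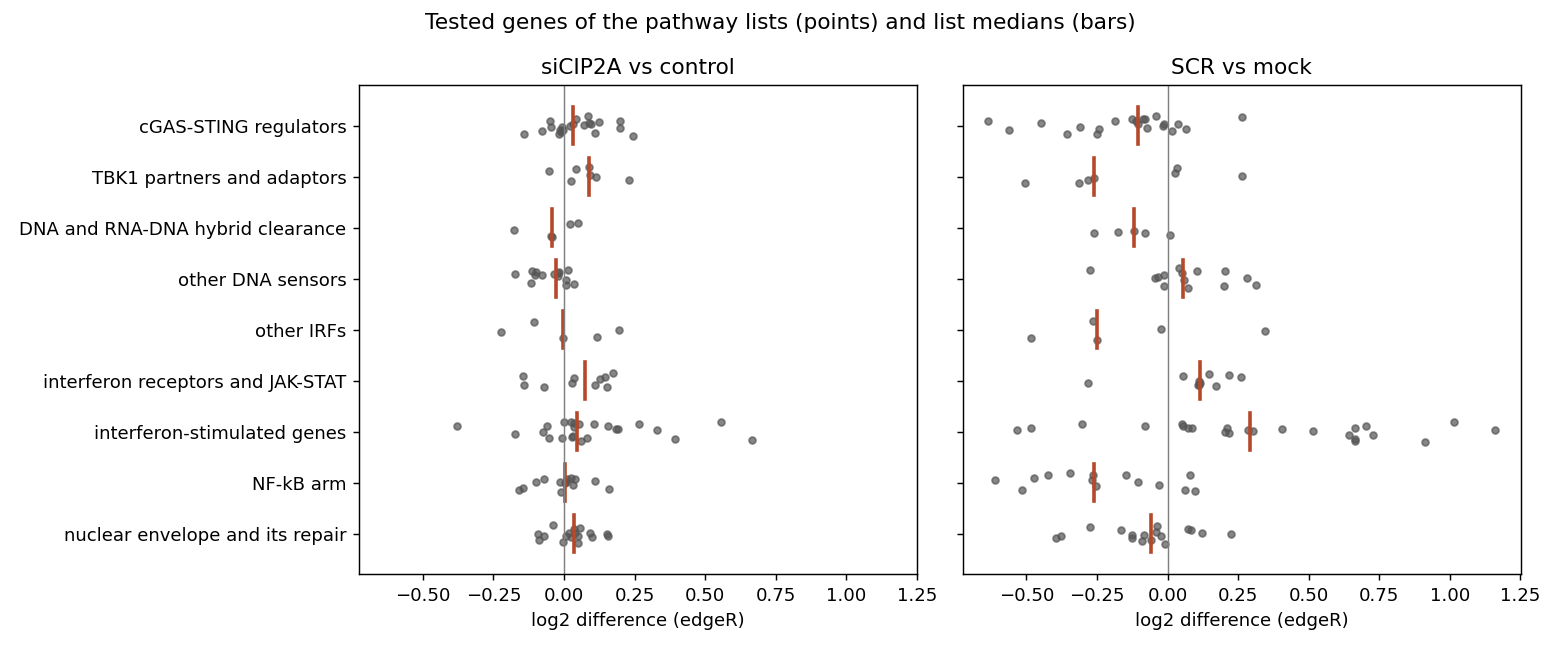
Log2 difference (x axis, edgeR, the same scale in both panels) of each tested gene of 9 lists, for siCIP2A against control on the left and SCR against mock on the right, with red bars at the list medians. The median of the interferon-stimulated genes was 0.05 on the left and 0.29 on the right.

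The non-targeting siRNAs were also set against the mock. Since the sources differ on whether the mock received the reagent, an effect of the siRNA and one of the reagent cannot be told apart here. None of the 6 tested genes passed: the log2 difference (SCR minus mock) was -0.08 for MB21D1 (SE 0.25), 0.10 for TMEM173 (SE 0.30), 0.17 for TBK1 (SE 0.17), -0.11 for IRF3 (SE 0.16), 0.02 for TREX1 (SE 0.44) and -0.14 for CCL5 (SE 0.88). The edgeR adjusted p lay between 0.893 and 0.994 for these genes, and edgeR called 0 of 13562 genes (0%) with 856 at an unadjusted p under 0.05, while DESeq2 called 3. The mock is 1 library, and the spread in this fit came from the other libraries.

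Of the 24 tested interferon-stimulated genes 20 were higher with SCR than in the mock, with a median log2 difference of 0.29, where 50.4% of all tested genes were above 0 and the median was 0.0023. None was called and 3 had an unadjusted p under 0.05. With SCR#3 alone 19 of 25 were above 0 (median 0.36), and with SCR#2 alone 21 of 25 (median 0.25). The genes named next were chosen after their values had been seen. IFI44 stood at 9.46 CPM with SCR#2 and 9.09 CPM with SCR#3, against 4.07 CPM in the mock, and at 8.20, 9.20 and 8.21 CPM with siCIP2A#1, #2 and #3. All 5 siRNA libraries were thus above the mock for IFI44, with a log2 difference of 1.16 for SCR against mock (SE 0.25, edgeR adjusted p = 0.610). IFIT3 stood at 19.0 and 22.4 CPM with SCR#2 and SCR#3, against 12.8 CPM in the mock (log2 difference 0.67, SE 0.26, edgeR adjusted p = 0.767). GBP1 stood at 6.95 and 7.12 CPM with SCR#2 and SCR#3, against 4.36 CPM in the mock (log2 difference 0.66, SE 0.27, edgeR adjusted p = 0.780). ISG15 and MX1 went the other way, at -0.30 (SE 0.22) and -0.48 (SE 0.41). In all, 10 of the 24 genes were above the mock in every one of the 5 siRNA libraries, as were 18.2% of all tested genes.

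**Figure D4:**
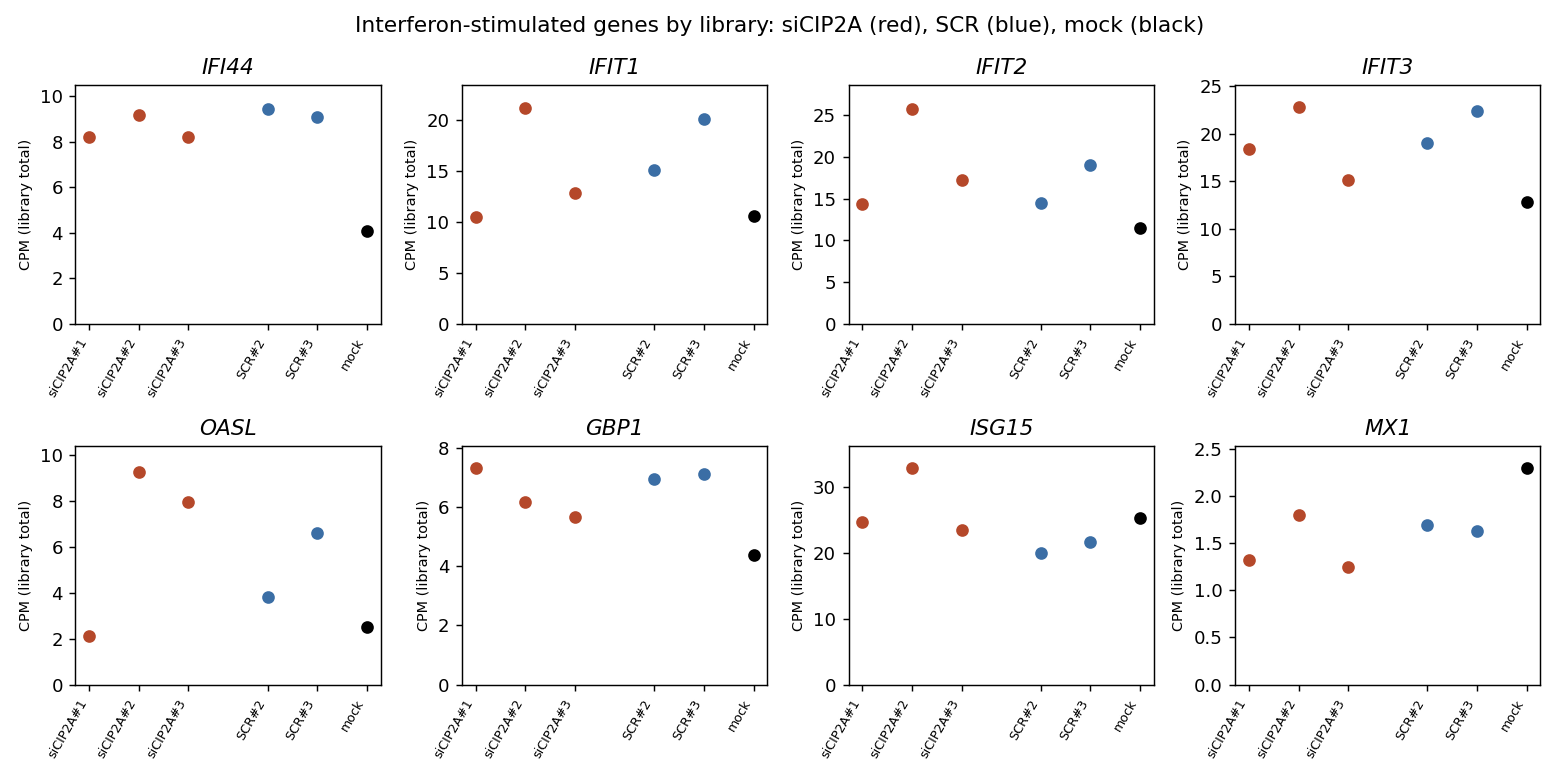
CPM (y axis from 0) of 8 interferon-stimulated genes in each library, siCIP2A in red, SCR in blue and mock in black. IFI44 lies at 8.20 to 9.46 CPM in the 5 siRNA libraries and at 4.07 CPM in the mock, whereas MX1 is highest in the mock at 2.29 CPM.

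In the NF-kB arm 11 of 14 genes had a log2 difference below 0 for SCR against mock, with a median of -0.26, 0 called and 4 at an unadjusted p under 0.05. Without SCR#2 the median was -0.08 with 10 of 14 below 0. RELB, named next, was chosen after its values had been seen, and with both SCR libraries 3 of the 14 genes lay above 0. RELB stood at 35.9 and 37.5 CPM with SCR#2 and SCR#3, against 55.1 CPM in the mock (log2 difference -0.61, SE 0.18, edgeR adjusted p = 0.653). MAP3K14, the kinase gene of the non-canonical pathway, stood at 102 and 113 CPM with SCR#2 and SCR#3, against 151 CPM in the mock (log2 difference -0.52, SE 0.14, edgeR adjusted p = 0.614).

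The ISRE core was common in the windows of the interferon-stimulated genes: 18 of the 23 with a window at hand held it (78.3%). Only the first listed window of each gene was searched. RSAD2, CMPK2 and XAF1, counted as without the core, had further windows that were not searched. The 4 stretches below are from genes described above and are shown to set beside the CXCL10 element. In the ISG15 stretch a second core overlaps the marked one and is mostly in lower case. The stretches run 5′ to 3′ on the strand of the gene, each with 1 ISRE core or its complement in capitals. They lie at chr1:78649764-78649787, chr10:89327868-89327891, chr1:1013377-1013400 and chr1:89065319-89065342 in this order (RefSeq, GRCh38.p14), the last on the minus strand and the others on the plus strand.
IFI44: cactgagTTTCAGTTTCctttctc
IFIT3: aaattagTTTCACTTTCcagtttc
ISG15: gcctcggGAAAGGGAAAccgaaac
GBP1: gaagtacTTTCAGTTTCatattac
These 4 genes had 4.07 to 32.9 CPM in these libraries, and CXCL10 did not exceed 0.118 CPM. Other holders of the core ranged more widely, with IFI44L at 0.473 to 1.03 CPM, BST2 at 0.500 to 1.32 CPM and PARP14 at 80.4 to 102 CPM.

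The genes whose log2 CPM was most like that of each tested gene over the 6 libraries were sought among genes of mean log2 CPM of at least 1, 12096 for each gene and 12097 for CCL5. With 6 points, high values arise readily, and 70 to 227 genes reached 0.9 for each, so these are descriptions only. For MB21D1 the closest were the splicing factor gene SART3 (Pearson correlation 0.992) and the long non-coding RNA gene NRAV (0.991). For TMEM173 they were the matrix protein gene CCDC80 (0.992) and the annexin gene ANXA1 (0.992), and for TBK1 the kinase gene STK4 (0.989) and CHM (0.988). For IRF3 they were YBX3 (0.995) and AHSA1 (0.989), for TREX1 ARHGEF4 (0.995) and RARS (0.987), and for CCL5 the ribosomal protein gene RPS23 (0.997) and ZDHHC7 (0.991). All points share their library, depth and scaling.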

How the data were processed

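The deposited table holds raw counts of reads for each gene, and per the file headers each library has its own column. The submitters' processing notes name bcl2fastq 2.17, STAR 2.5.4b, Subread 1.5.1 and hg38, and the kit was TruSeq Stranded mRNA, per the labels' protocols. Which annotation and strand setting were used in counting, and how shared reads were treated, is not given in the sources used here.

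Genes were filtered with filterByExpr (minimum count 10), libraries were scaled with TMM, and edgeR 4.0.16 in R 4.3.3 was used (robust glmQLFit and glmQLFTest, Benjamini-Hochberg adjusted p under 0.05 over all tested genes). The residual degrees of freedom were 4 for siCIP2A against control, 3 for SCR against mock (3 levels) and 2 for single siRNAs (4 levels). Printed CPM use the library totals. Log2 CPM had a prior count of 2. The steps were tested on simulated data. Within a group, chi-square per degree of freedom between libraries was 3.20 to 18.0, so none was a copy. Pathway lists are described without a set test. Alternatives used DESeq2 1.42.0, limma 3.58.1, other scalings and filters, a block for replicate number, a separate level for the mock, and left-out libraries. Comparisons between siRNAs, and the alternatives for the lists, were added after the data had been seen. Transcript lengths and coordinates came from GENCODE 29, promoters from RefSeq. Members, lists and the naming rule (the 7 genes, the 4 smallest p of each list, called genes, genes at 0 and the 2 most alike) were chosen with earlier results of these data known.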

Additional observations from a re-analysis of the deposited data

Results flagged for a closer look

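TMEM173 differed between siRNAs against the same target: its log2 difference of siCIP2A#1 minus siCIP2A#3 was 0.91, at 83.9 CPM with siCIP2A#1 and 44.1 CPM with siCIP2A#3, and this difference passed edgeR's quasi-likelihood test (adjusted p = 0.0414). The comparison has 1 library on each side, was added after the values were seen, and takes its spread from the 3 controls.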

How the results depend on the processing

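Of 466 recomputed log2 differences of the 6 tested genes, 438 kept their direction and side of the threshold, 16 changed sign and 12 became called. None of these genes was called for siCIP2A against control or SCR against mock in any alternative. For siCIP2A against control TMEM173 stood at -0.0459 under limma-voom, -6.41e-05 when unfiltered, -0.0418 with the replicate block and -0.0318 when the mock had its own level. With single libraries left out the ranges were -0.20 to 0.22 for TMEM173, -0.0786 to 0.0731 for TBK1, -0.315 to 0.0574 for MB21D1, -1.11 to 0.125 for CCL5 and -0.177 to 0.175 for TREX1. They were -0.00877 to 0.134 for TBK1 and -0.0283 to 0.0388 for IRF3 with siCIP2A#2, and -0.00184 to 0.0477 for TREX1 with SCR against mock.

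Counts of called genes over the whole table moved more. DESeq2 called 3 genes for siCIP2A against control, 75, 61 and 29 for siCIP2A#1, #2 and #3 against control, 3 for SCR against mock, and 89, 144 and 96 for siCIP2A#1 against #2, #1 against #3 and #2 against #3. With no filter the counts in this order were 3, 169, 109, 44, 5, 156, 305 and 211. Limma-voom called 1 gene for siCIP2A#1 against #2, and the replicate block 1 for siCIP2A against control. Same-numbered libraries had correlations of -0.117, -0.128 and 0.00762 in their deviations from the group means. Each siCIP2A library holds another siRNA and 1 control is the mock. The correlations therefore cannot decide whether the replicate numbers pair the libraries. With single libraries left out the counts were 0 to 1 for siCIP2A against control, 85 to 1896, 40 to 3088 and 32 to 1330 for siCIP2A#1, #2 and #3 against control, and 101 to 2302, 213 to 2477 and 108 to 3026 for #1 against #2, #1 against #3 and #2 against #3. The upper end is in each case the fit without the mock, except for siCIP2A against control, where it is the fit without siCIP2A#2. With no filter MB21D1 (siCIP2A#1 against #3, -0.762, adjusted p = 0.0253) and TMEM173 (siCIP2A#2 against #3, 0.666, adjusted p = 0.0352) were also called by edgeR. The strict filter (CPM of at least 1 in 3 libraries) left no value for CCL5. Depth limits CXCL10, CCL5 and TREX1.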
